A study of Mus musculus with 8 samples.

Results

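The laminin chains are 9 of the 24346 genes that the files list, namely the alpha chain genes Lama1 to Lama5, the beta chain genes Lamb1, Lamb2 and Lamb3, and the gamma chain gene Lamc1. They were chosen by gene symbol and not by their values. RNA came from primary adipose-derived stem cells (ADSCs) of wild-type BALB/c mice, isolated from the gonadal fat of adult males. Of the 8 libraries, 4 were 2D cultured (mice 2, 3, 4 and 5) and 4 were 3D cultured (mice 1, 4, 5 and 7), and mice 4 and 5 were cultured both ways. The 3D cells grew as organoids in Matrigel, a basement membrane extract of a mouse tumour, so the culture type, the matrix and the medium cannot be told apart.

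Laminins are large glycoproteins of the basement membrane, the thin matrix sheet under epithelia and around muscle, fat and nerve cells. Each is a trimer of an alpha, a beta and a gamma chain wound into a coiled coil, and its name gives the numbers of the chains, so that laminin-511 holds alpha5, beta1 and gamma1. Beta and gamma chains join inside the cell, and the alpha chain is generally needed for secretion. The end of the alpha chain carries the globular domains that bind integrins and dystroglycan, so the alpha chain largely sets which receptors a laminin meets. The RNA of a chain gives neither its protein nor its assembly, and the laminin protein of Matrigel, which is mainly laminin-111, is not measured here.

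The deposited values are FPKM, fragments per kilobase of transcript per library of standard size, which allow a comparison between genes of unequal length. Estimated depth lay between 14.5 M and 17.3 M fragments per library. The values were quantile normalized for the fit, and levels are given as normalized FPKM unless they are called deposited. Fold changes are on the scale of log2(normalized FPKM + 1), as 3D minus 2D, so that changes of scarce genes come out too small. Some libraries stood apart. The summed level of 5 mesothelial markers (Msln, Upk3b, Lrrn4, Wt1 and Upk1b), which mark the lining of the body cavity, was 816 normalized FPKM for mouse 3 and 2002 for mouse 4 in 2D. It was 1.99 and 0.525 for mice 2 and 5 in 2D, and between 1.57 and 33.7 in the 3D libraries. The label of the cells was also checked. The summed level of 8 stromal markers, among them Pdgfra and Col1a1, ranged from 1512 to 3197 normalized FPKM in 2D and from 4.72 to 8.12 in 3D, where Pdgfrb and Dcn were listed at 0. The summed level of 9 epithelial markers, among them Krt8 and Cldn3, ranged from 28.8 to 437 in 2D and from 1551 to 1880 in 3D. All 8 stromal genes were lower and all 9 epithelial genes higher in 3D with limma's adjusted p below 0.05. The part of these cell identities in the laminin results was not tested, and fewer cells of a type and less RNA per cell cannot be told apart.

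The alpha chains of the 2D libraries were mixed, and those of the 3D libraries were almost entirely Lama5. Lama5 was higher in 3D, and Lama1, Lama2 and Lama4 were lower, as were Lamb1 and Lamc1. In all, 1 of the 9 chains was higher and 5 were lower in 3D by limma's moderated test with an adjusted p below 0.05, and Lama3, Lamb2 and Lamb3 did not pass. Over the 18862 genes tested, 21.2% were higher and 20.3% lower by the same criterion, 41.5% in all. The libraries of the culture types did not overlap for 6 of the 9 chains, against 42.5% of all genes. The median log2 fold change of the chains was -1.10, against 0.0012 over all genes. Adding the mouse as a block left 1 residual degree of freedom. No chain then passed (0 of 9), although the unadjusted p of limma was under 0.05 for 6 of them, and the adjusted p of those 6 lay between 0.111 and 0.155.

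**Figure D1:**
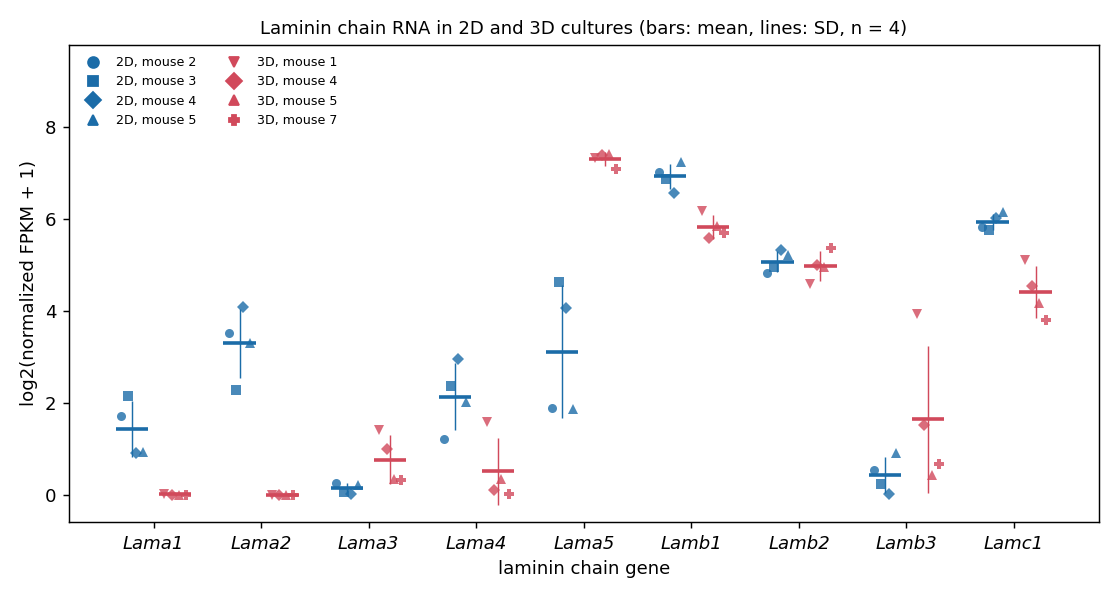
Levels of the 9 laminin chain genes on the horizontal axis as log2(normalized FPKM + 1) on the vertical axis, with 2D libraries in blue and 3D libraries in red, a symbol per mouse, bars for the mean and lines for the SD (n = 4). Lama5 lies above every other alpha chain in 3D, between 135 and 171 normalized FPKM, while Lama2 lies at 0 in all 4 3D libraries.

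Lama5 (chromosome 2, minus strand, GENCODE M21 on GRCm38, the build named mm10 in the submitters' processing notes) encodes the alpha chain found most widely under adult epithelia. In 2D it was at 2.69, 23.7, 15.8 and 2.62 normalized FPKM in mice 2, 3, 4 and 5. In 3D it was at 159, 167, 171 and 135 normalized FPKM in mice 1, 4, 5 and 7. The 3D libraries were all above the 2D libraries and close to each other, whereas the 2D libraries fell into a lower and a higher pair. Its log2 fold change came to 4.20 (SE 0.65, adjusted p = 0.0016 by limma), which is 18.3-fold. The higher 2D pair, mice 3 and 4, were the libraries with the mesothelial markers. Within this pair, Lama5 was higher in mouse 3 and the mesothelial sum was higher in mouse 4. The sum of the 9 epithelial markers was also higher in this pair, at 61.5 and 437 normalized FPKM. It was 28.8 and 31.8 in the 2D libraries of mice 2 and 5. Without the 2D libraries of mice 3 and 4, a choice made after seeing the data, the log2 fold change of Lama5 was 5.44 and limma's adjusted p was 1.1e-05. With only mice 4 and 5 the log2 fold change was 4.45 and limma's adjusted p was 0.0760.

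**Figure D2:**
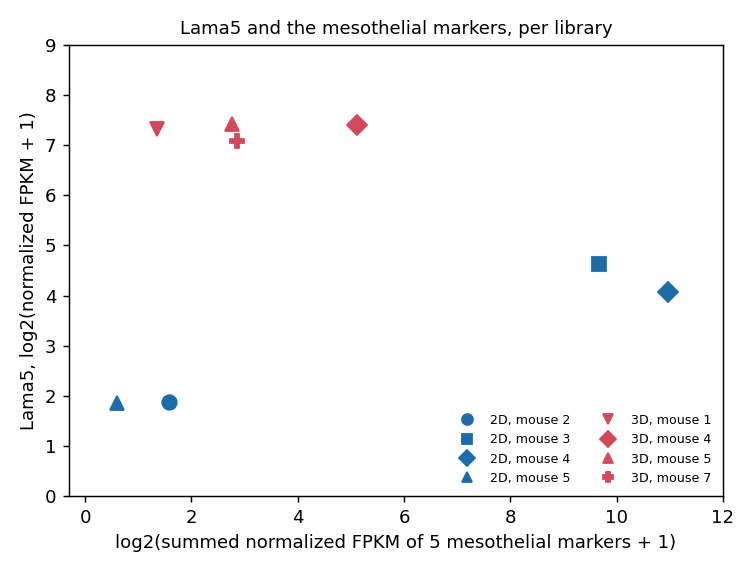
Lama5 as log2(normalized FPKM + 1) on the vertical axis against the summed normalized FPKM of 5 mesothelial markers on a log2 scale, each point a library, 2D in blue and 3D in red. The 2D libraries of mice 3 and 4 lie to the right and above those of mice 2 and 5, with mouse 3 higher and mouse 4 further right. The 4 3D libraries lie highest on the Lama5 axis without a high mesothelial sum.

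Lama2 (chromosome 10, minus strand), the alpha chain of muscle and peripheral nerve basement membranes, whose loss causes a congenital muscular dystrophy, moved in the other direction. In 2D it was at 10.5, 3.83, 16.0 and 8.81 normalized FPKM in mice 2, 3, 4 and 5. It was listed at 0 in all 4 3D libraries. Every 2D library was thus above every 3D library, with mouse 3 the lowest. Its log2 fold change came to -3.29 (SE 0.35, adjusted p = 2.6e-04 by limma). From the deposited means and the highest value that 3 fragments give in 3D (0.0215 FPKM), Lama2 was at least 441-fold lower in 3D. These limits cover counting error only.

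The windows upstream of Lama5, Lama2 and Lamb1 are shown because these are the chains with a promoter entry that passed the test, 1 of them higher and 2 lower in 3D. They are RefSeq promoters of GRCm38.p6, of which 5 of the 9 members had an entry, cut where an annotated exon begins. Capitals mark GGGCGG (the GC box) and CCAAT on either strand, and no base is shared between 2 matches. The windows lie at chr2:180225860-180226109 (minus strand), chr10:27616943-27617192 (minus strand) and chr12:31265043-31265233 (plus strand), in this order.
Lama5: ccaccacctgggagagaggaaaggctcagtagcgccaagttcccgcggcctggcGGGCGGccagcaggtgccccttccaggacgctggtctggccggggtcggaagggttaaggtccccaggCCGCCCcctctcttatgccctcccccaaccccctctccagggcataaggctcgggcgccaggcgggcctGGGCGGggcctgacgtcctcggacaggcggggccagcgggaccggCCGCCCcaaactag
Lama2: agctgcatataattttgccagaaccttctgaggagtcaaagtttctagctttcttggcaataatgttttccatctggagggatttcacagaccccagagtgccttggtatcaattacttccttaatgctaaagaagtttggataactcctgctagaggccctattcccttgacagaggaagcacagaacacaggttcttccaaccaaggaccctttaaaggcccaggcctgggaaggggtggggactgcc
Lamb1: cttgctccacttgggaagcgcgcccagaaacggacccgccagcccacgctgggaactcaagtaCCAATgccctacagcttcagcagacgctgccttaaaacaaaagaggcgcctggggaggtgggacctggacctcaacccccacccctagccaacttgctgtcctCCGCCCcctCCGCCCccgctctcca

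The Lama5 window held 19 CpG dinucleotides and 72.4% G and C, and the Lama2 window held 0 CpG and 47.2% G and C, against a median of 52.4% over all promoter windows of that length. GGGCGG occurred 4 times in the Lama5 window, 2 times in the Lamb1 window and 0 times in the Lama2 window. It occurred in 32.7% of all 32851 promoter windows of 250 bases and in 23.1% of those of 191 bases. CCAAT occurred once, in the Lamb1 window, and in 26.9% of all windows of that length. TATAAA (the TATA box), TGANTCA (AP-1), GGAATG (TEAD) and AACCNGTT (Grainyhead) were searched on both strands and had 0 matches in the 3 windows. In windows of 250 bases they occurred in 12.4%, 6.75%, 12.6% and 1.79% of all promoters. These matches describe letters only. The Lama2 window lies within the longer Lama2 gene model of GENCODE, outside its exons.

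Lama1 (chromosome 17), the alpha chain of early embryos and of laminin-111, was low in all libraries. It was at 2.28, 3.41, 0.879 and 0.909 normalized FPKM in 2D (mice 2, 3, 4 and 5). In 3D it was at 0.0120 in mouse 1 and at 0 in mice 4, 5 and 7, so the culture types did not overlap. The log2 fold change came to -1.42 (SE 0.27, adjusted p = 0.0045 by limma). In the 3D library of mouse 1, its value rests on about 3.85 fragments.

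Lama4 (chromosome 10), the alpha chain of blood vessels and mesenchymal tissue with a short amino-terminal arm, was less clear. In 2D it was at 1.32, 4.17, 6.72 and 3.03 normalized FPKM in mice 2, 3, 4 and 5. In 3D it was at 2.00 in mouse 1, and at 0.0665, 0.266 and 0.0101 in mice 4, 5 and 7. The 3D library of mouse 1 lay above the 2D library of mouse 2, so the culture types overlapped. The log2 fold change came to -1.63 (SE 0.46, adjusted p = 0.0248 by limma). The call held without the 3D library of mouse 1, at an adjusted p of 0.0084 from limma, and without the 2D library of mouse 2, at 0.0161. It was lost without any 1 of the other 6 libraries, at an adjusted p between 0.0535 and 0.0716 from limma, without both 2D libraries of mice 3 and 4, at 0.164, and on the deposited values, at 0.0634. In 3D, its values for mice 4 and 7 rest on about 6.90 and 0.976 fragments.

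Lama3 (chromosome 18), the alpha chain of stratified and glandular epithelia, was the scarcest alpha chain in each 2D library. It was at 0.185, 0.0469, 0.0140 and 0.159 normalized FPKM in 2D, in mice 2, 3, 4 and 5. In 3D it was at 1.67, 1.00, 0.263 and 0.240 in mice 1, 4, 5 and 7. All 3D libraries were above all 2D libraries, with mice 1 and 4 well above mice 5 and 7. The log2 fold change of 0.63 (SE 0.24) had an adjusted p of 0.0752 from limma. Leaving out mouse 7 from 3D gave 0.0452, and a pseudocount of 0.1 gave 0.0343.

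Of the beta chains, 1 passed the test. Lamb1 (chromosome 12), the beta chain of most laminins, was at 129, 117, 94.6 and 151 normalized FPKM in 2D (mice 2, 3, 4 and 5). In 3D it was at 71.8, 47.0, 56.9 and 50.5 in mice 1, 4, 5 and 7. No 3D library reached the lowest 2D library. Lamb1 fell by 1.10 on the log2 scale (SE 0.18, adjusted p = 0.0018 by limma), and its change on the deposited values was -1.61. It stayed the most abundant beta chain in every library.

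Lamb2 (chromosome 9), the beta chain of the neuromuscular junction and the kidney filter, did not pass. Its levels were 27.4, 29.9, 39.1 and 36.0 normalized FPKM in 2D (mice 2, 3, 4 and 5). They were 23.2, 30.9, 30.1 and 40.6 in the 3D libraries of mice 1, 4, 5 and 7, and the culture types overlapped. Its log2 fold change came to -0.10 (SE 0.18, adjusted p = 0.694 by limma). Its sign was reversed without the 3D library of mouse 1, at 0.034, and the change was -0.34 on the deposited values.

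Lamb3 (chromosome 1), a beta chain of skin and other epithelia, stood far apart in one 3D library. Its 3D level was 14.4 normalized FPKM in mouse 1, and 1.84, 0.353 and 0.599 in mice 4, 5 and 7. In 2D it was at 0.449, 0.179, 0.0033 and 0.880 in mice 2, 3, 4 and 5. The culture types overlapped, and the mean of 3D rested on mouse 1. Its log2 fold change came to 1.22 (SE 0.73, adjusted p = 0.225 by limma) and 0.45 without the 3D library of mouse 1, at an adjusted p of 0.310 from limma.

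Lamc1 (chromosome 1, minus strand), the gamma chain shared by all but a few laminins and needed for the first basement membranes of the embryo, was at 56.1, 53.6, 64.5 and 69.8 normalized FPKM in 2D (mice 2, 3, 4 and 5). In 3D it was at 33.8, 22.3, 17.1 and 12.9 in mice 1, 4, 5 and 7. The 2D libraries were close to each other and all above the 3D libraries. Lamc1 fell by 1.54 on the log2 scale (SE 0.26, adjusted p = 0.0026 by limma).

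**Figure D3:**
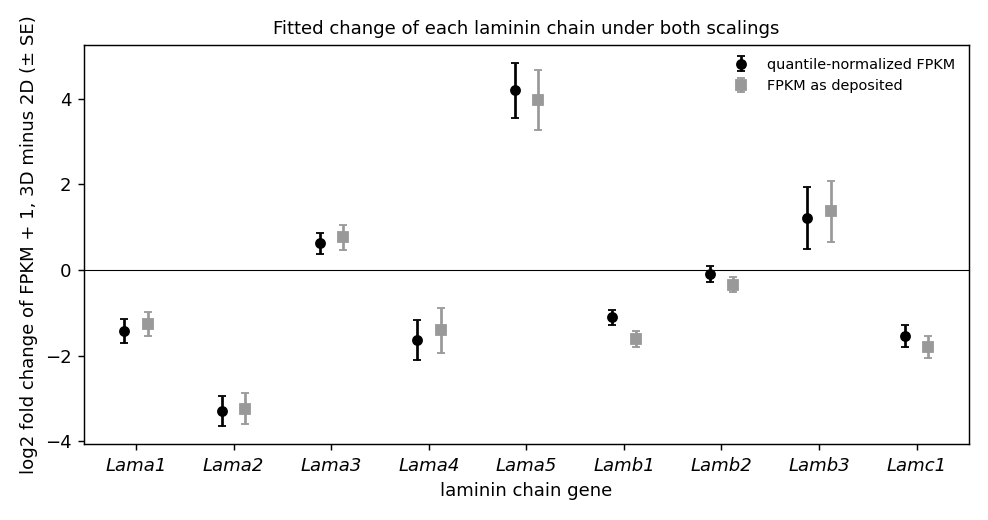
Log2 fold change of FPKM + 1 (3D minus 2D) with its standard error for each of the 9 chains, from quantile-normalized values (black) and from values as deposited (grey). Lama5 stands highest at 4.20 and Lama2 lowest at -3.29, and no chain changes its direction between the scalings.

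To compare the chains with each other, each chain was taken as a percent of the deposited FPKM of its class in the same library, which largely removes the scaling of the library. Lama5 held 14.1%, 69.5%, 40.6% and 15.5% of the alpha chain FPKM in 2D (mice 2, 3, 4 and 5). It held 96.4%, 99.1%, 99.6% and 99.8% in the 3D libraries of mice 1, 4, 5 and 7. Lama2 held 67.2%, 10.2%, 40.8% and 61.2% in 2D and 0% in 3D. Lama2 therefore led in the 2D libraries of mice 2 and 5 and narrowly in that of mouse 4, whereas Lama5 led in that of mouse 3. Lama4 held between 6.38% and 18.2% in 2D and between 0.0097% and 1.94% in 3D. Lama1 held 6.81% ± 4.30 in 2D and 0.0052% ± 0.0105 in 3D (SD, n = 4).

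Among the beta chains, Lamb1 held 79.9% ± 5.64 in 2D and 59.3% ± 4.31 in 3D (SD, n = 4). Lamb2 held 19.9% ± 5.72 and 36.0% ± 9.53, and Lamb3 held 0.124% ± 0.0980 and 4.76% ± 6.77. The difference in the Lamb3 share, 4.63 percentage points, was 1.29 without the 3D library of mouse 1. In a two-sided exact permutation test over libraries, Lama1, Lama2, Lama4, Lama5, Lamb1 and Lamb3 each gave p = 0.0286, which is the lowest value possible with 4 libraries a side. Adjusted over the 8 shares compared, this was 0.0381 in the exact permutation test. The share of Lamb2 gave an adjusted p of 0.0653 and that of Lama3 an adjusted p of 0.400 in the exact permutation test. Shares of 1 class add up to a whole and are not independent of each other.

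**Figure D4:**
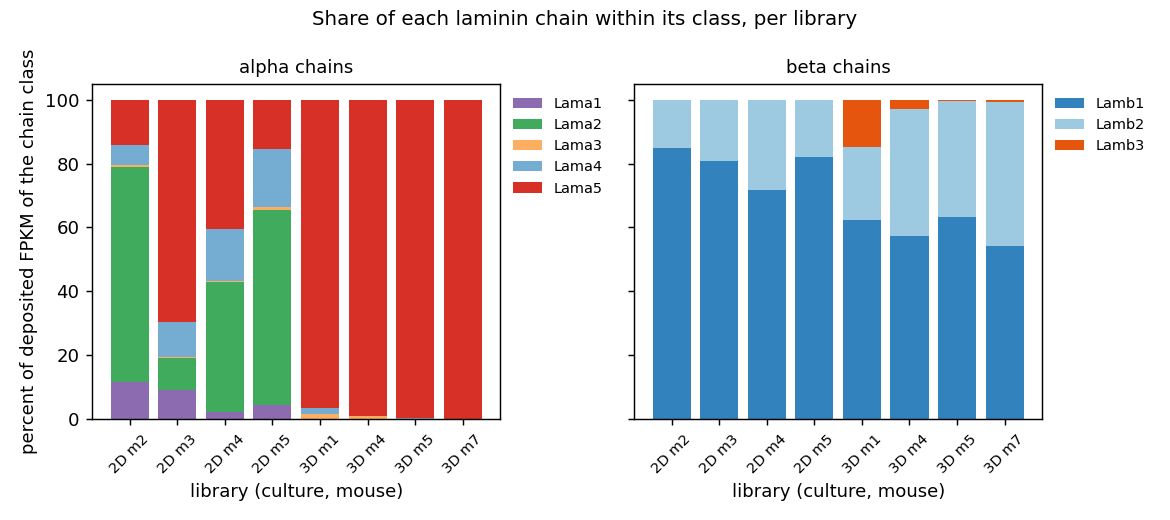
Percent of the deposited FPKM of its class (vertical axis) held by each alpha chain (left) and beta chain (right) in each of the 8 libraries. Lama5 fills between 96.4% and 99.8% of the alpha bars in 3D, and the alpha bars of the 2D libraries differ from mouse to mouse.

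The sum of the 9 chains was 283, 255, 264 and 330 deposited FPKM in 2D (mice 2, 3, 4 and 5) and 261, 227, 225 and 200.3 in 3D (mice 1, 4, 5 and 7). The 3D library of mouse 1 lay within the 2D range (two-sided exact permutation test, p = 0.0571). On quantile-normalized values the difference turned, with 3D higher by 28.8 FPKM, so no direction is given for the sum. The balance between the classes differed more. The alpha chains together came to 0.384 ± 0.226 times Lamc1 in 2D and 6.76 ± 1.84 times Lamc1 in 3D (SD, n = 4, deposited FPKM). The ratio of Lamb1 to Lamc1 was 2.15 ± 0.433 in 2D and 2.53 ± 0.690 in 3D (SD, n = 4). Alpha RNA was thus below gamma1 RNA in every 2D library and above it in every 3D library, while beta1 RNA was above gamma1 RNA throughout. These ratios were not tested.

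The question which trimers each culture could make was approached through the scarcest chain of each trimer, since none can form without all 3 of its chains. Of 10 trimers with gamma1, 4 had all chains at 1 deposited FPKM or more in every 2D library, namely laminin-211, laminin-221, laminin-511 and laminin-521. In every 3D library 2 did, laminin-511 and laminin-521. At a level of 5 FPKM these counts were 0 in 2D and 2 in 3D, and at 0.5 FPKM they were 8 and 2. The scarcest chain of laminin-511 was Lama5 in each 2D library, at 2.10, 24.4, 15.9 and 2.12 deposited FPKM in mice 2, 3, 4 and 5. In each 3D library it was Lamc1, at 30.7, 21.1, 16.8 and 12.8 in mice 1, 4, 5 and 7. The ranges of these values overlapped, although Lama5 itself did not overlap between the culture types.

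For laminin-211 and laminin-221 the scarcest chain was Lama2, at 9.48 ± 5.10 deposited FPKM in 2D (SD, n = 4) and at 0 in 3D. For laminin-411 and laminin-421 it was Lama4, which reached 1 deposited FPKM in 3 of the 2D libraries and in 1 of the 3D libraries, that of mouse 1. The 2D library of mouse 2 fell just short, at 0.953 deposited FPKM, and was at 1.32 normalized FPKM. For laminin-111 and laminin-121 it was Lama1, which reached that level in 2 of the 2D libraries and in 0 of the 3D libraries. For laminin-311 and laminin-321 it was Lama3, which was at 2.19 and 1.17 deposited FPKM in 3D for mice 1 and 4 and at 0.289 and 0.233 for mice 5 and 7. No 2D library (0 of 4) reached 1 deposited FPKM of Lama3. Values for a gene do not separate the long and the short form of alpha3.

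**Figure D5:**
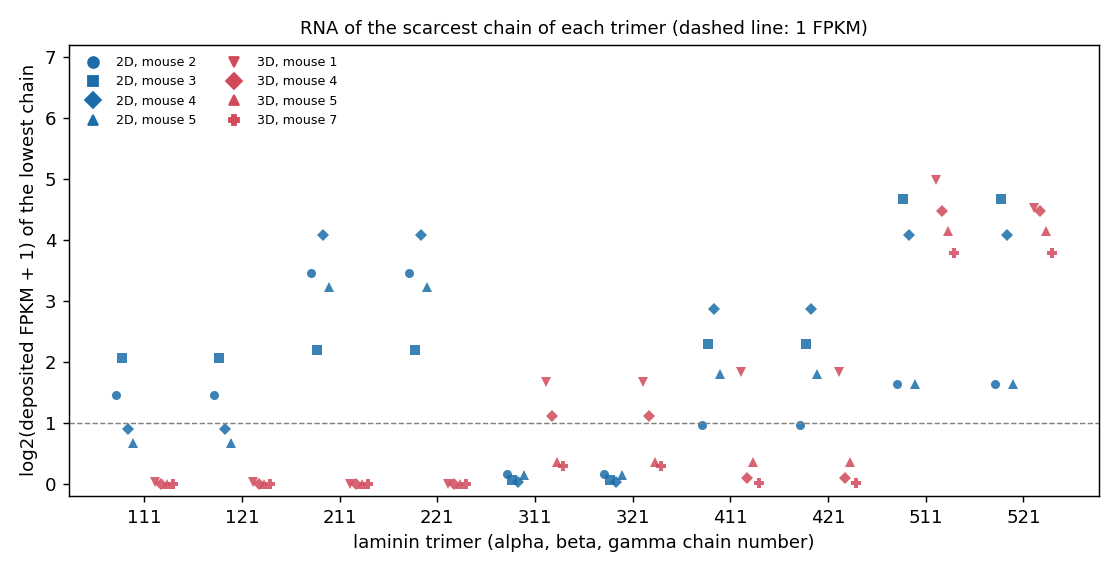
Level of the scarcest chain of 10 laminin trimers (horizontal axis) as log2(deposited FPKM + 1), with 2D libraries in blue, 3D libraries in red and a symbol per mouse; the dashed line marks 1 FPKM. For laminin-511 and laminin-521 all libraries lie above the line, and for laminin-211 and laminin-221 only the 2D libraries do.

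Other genes of the basement membrane came from lists written by hand. The counts of each list stand beside 21.2% higher and 20.3% lower in 3D over all genes tested. Of 21 partners of laminin, 4 were higher and 7 lower in 3D by limma with an adjusted p below 0.05, with a median log2 fold change of -0.31. Among the lower ones, Nid1 (nidogen, which links laminin to collagen IV) went from 313 ± 52.1 to 3.24 ± 4.54 normalized FPKM (SD, n = 4). Col4a1 went from 537 ± 28.0 to 38.4 ± 9.01 and Col4a2 from 272 ± 16.1 to 22.6 ± 5.43, the chains of the main collagen IV trimer. Fbln2, a fibulin that binds laminin, went from 1131 ± 186 to 0.953 ± 0.946. Among the higher ones, Agrn (agrin, a heparan sulfate proteoglycan that binds laminin and dystroglycan) went from 5.77 ± 3.63 to 293 ± 92.8. Col18a1, a collagen of epithelial and vascular basement membranes, went from 3.05 ± 0.421 to 86.3 ± 20.3, and Fras1 and Frem2, of the Fraser complex under embryonic epithelia, had log2 fold changes of 3.81 and 2.99. Frem2 was listed at 0 in every 2D library.

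Of 10 laminin receptor genes, 5 were higher and 3 lower in 3D by limma with an adjusted p below 0.05, with a median log2 fold change of 1.16. Itga3, the alpha3 integrin, which pairs with the beta1 integrin, had a log2 fold change of 4.32. Itga6, the alpha6 integrin, which pairs with the beta1 or the beta4 integrin, had one of 2.31, and Itgb4, the beta4 integrin, one of 6.15. Without the 2D libraries of mice 3 and 4, the change of Itga6 was 1.97 and no longer passed (adjusted p = 0.0968 by limma), which left 4 higher receptor genes. Bcam, the Lutheran receptor specific for the alpha5 chain, went from 8.31 ± 5.98 to 104 ± 107 normalized FPKM (SD, n = 4), with 264 in 3D for mouse 1 and between 36.7 and 63.5 for the other mice. The lower genes were Itga7, the alpha7 integrin of muscle, with a log2 fold change of -3.00, Mcam, a receptor for alpha4 laminins, with -2.14, and Itgb1, the common beta1 integrin, with -2.01. Of 5 genes of the hemidesmosome and its anchoring fibrils, 0 were higher and 3 lower, with a median log2 fold change of -0.80. This list did not hold Itga6 and Itgb4, the integrin of the hemidesmosome, which were counted with the receptors and were higher. Hemidesmosome genes thus did not all move in 1 direction. Within the list, the largest change was that of Col7a1, the anchoring fibril collagen, at -3.14. Dst, whose epithelial form links to keratin, changed by -1.43, and its gene values do not separate its forms. Col17a1, the hemidesmosome collagen, reached 10.1 normalized FPKM in 3D for mouse 1 and 0.192 or less elsewhere. Of 12 genes that build the laminin-binding sugar chain of dystroglycan, 2 were higher and 2 lower, against 21.2% higher and 20.3% lower over all genes. The median log2 fold change of these 12 genes was -0.12. Tmem5 (Rxylt1), a xylose transferase of the pathway, had a log2 fold change of -1.52, and Pomt2, which starts the chain, one of 0.49. With the mouse as a block, 0 genes of these lists passed in either direction.

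The genes most like a chain in pattern were sought among 12583 genes with a mean of at least 1 normalized FPKM. The measure was the root mean square difference of log2(normalized FPKM + 1) over the 8 libraries, with each gene's mean subtracted. Levels were thus not compared, and the added 1 shrinks the changes of scarce chains such as Lama3. For Lama5 the genes most alike were Nfib and Hoxd4, at differences of 0.203 and 0.329. Nfib shared the split of the 2D libraries, at 2.28, 20.4, 14.0 and 2.04 normalized FPKM in mice 2, 3, 4 and 5. For Lama2 they were Wisp2 and Wnt2, at 0.178 and 0.191, and for Lamb1 Calr and Atp8b2, at 0.102 and 0.117. For Lamc1 they were Prelid2 and Ostf1, at 0.193 and 0.203. For Lamb3 they were Acpp and Vwa1, at 0.230 and 0.334, both highest in the 3D library of mouse 1, at 15.7 and 15.8 normalized FPKM. For Lama1 they were Cd1d1 and D16Ertd472e, at 0.242 and 0.250, and for Lama3 Capn1 and Tigd2, at 0.124 and 0.145. For Lama4 they were Asap2 and Cyth3, at 0.294 and 0.302, and for Lamb2 Amn1 and Agpat3, at 0.111 and 0.111. All 8 libraries share the culture contrast, so these distances describe the pattern only.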

How the data were processed

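Total RNA of 8 ADSC cultures was depleted of ribosomal RNA, made into directional libraries and sequenced in paired ends. The authors trimmed reads (FASTX_Trimmer, BBMap), mapped the rest to mm10 (TopHat) and computed FPKM per gene with Cufflinks, and they deposited these FPKM values without read counts. The annotation is not given in the sources used here. The methods name a quantile normalization, which the deposited values do not include, since their totals and maxima differ.

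Genes at 0 in every library (5484) were left out. The remaining 18862 genes were quantile normalized, converted to log2(FPKM + 1) and fitted with limma 3.58.1 in R 4.3.3 with an intensity trend, without covariates, for 3D against 2D. Calls used a Benjamini-Hochberg adjusted p below 0.05 over all these genes. Sums and shares were tested by exact permutation over libraries. Each library of a culture type came from another mouse, per the labels, so p-values measure the spread between mice. Depth was inferred from the spacing of small FPKM values in 875 genes that have 1 transcript in GENCODE M21, 3000 nt or longer, and between 73.7% and 86.6% of these low values lay within 0.2 of a whole multiple. A gene's floor was set at 3 fragments over its longest transcript.

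Mice 4 and 5 gave both cultures, and the pairing comes from the mouse numbers in the labels. Over 12577 genes whose mean reached 1 FPKM, the deviations of their 2D and 3D libraries from the culture means correlated at -0.0526 and -0.113. The block was an alternative, as were the random effect of the mouse, the deposited values, no trend, a filter at a mean of 1 FPKM, a pseudocount of 0.1, mice 4 and 5 alone and the omission of each library.

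The members, lists, tests and rules were chosen with earlier results of these data known. Named genes are the 9 members, up to 4 genes in each direction per list with the largest change among those past the threshold without overlap, and the 2 genes most like each member. Col17a1 and the single libraries of Bcam were described after their values were seen. The lists also held 3 genes under older symbols in the files. A gene past the rule for the glycosylation list is not reported here. Further marker lists had 5 genes each. Endothelial markers summed to at most 6.79 normalized FPKM in 2D and 0.202 in 3D, with 0 called. Smooth muscle and pericyte markers summed to at least 1688 in 2D and at most 1.87 in 3D, with 5 lower. Macrophage markers summed to at most 4.53 in 2D and between 6.25 and 42.3 in 3D, with Cd68 called higher and Adgre1 at 0 in every 3D library. Adipocyte markers summed to at most 2.84 in any library, with 0 called and with Adipoq and Lep at 0 throughout. Schwann cell markers summed to at most 1.62 in 2D and between 17.8 and 25.9 in 3D, of which Erbb3 held between 15.6 and 24.8, and Erbb3 and Sox10 were called higher. Mesothelial markers had 0 genes called.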

Additional observations from a re-analysis of the deposited data

Results flagged for a closer look

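In 34 sets of 4 libraries (a chain's level or share in 1 culture type), 5 held a library far from the other 3 by Dixon's test at its 95% critical value, on the ratio of that library's gap to the whole range. Chance flags about 1 in 20 sets of independent and normally distributed values. Levels and shares repeat the same chains here, so the count of flags cannot be read against that rate. All 5 concerned the 3D library of mouse 1. The ratio was 0.871 for the normalized FPKM of Lama4 and 0.894 for that of Lamb3. It was 1 for the normalized FPKM of Lama1, and 1 for its share of the alpha chains, since Lama1 was at 0 in the other 3D libraries. It was 0.892 for the share of Lama4 among the alpha chains.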

How the results depend on the processing

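With the mouse as a replicate block, 0 laminin chains were called higher and 0 lower in 3D, and 0 genes passed in either direction among the partners, the receptors, the hemidesmosome and the dystroglycan glycosylation genes. With only mice 4 and 5, 0 chains were higher and 3 lower, 1 receptor was higher and 1 lower, and 0 hemidesmosome genes were lower and 0 dystroglycan glycosylation genes higher. The smaller number of samples is part of both settings. A pseudocount of 0.1 gave 2 higher chains. With each library left out, between 1 and 2 chains were higher and between 4 and 5 lower, and between 1 and 2 dystroglycan glycosylation genes were higher. Without the 2D libraries of mice 3 and 4, an alternative chosen after seeing the data, 1 of those genes was higher.

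On quantile-normalized values the difference in summed FPKM was 28.8 in place of -54.6, and the difference in the Lama3 share was -0.0844 percentage points in place of 0.306. That share difference was -0.0277 without the 2D libraries of mice 3 and 4. The log2 fold change of Lamb2 lay between -0.23 and 0.034 with each library left out, and was 0.034 without the 3D library of mouse 1. The cause of these reversals was not tested. In genes with a mean of 10 to 100 FPKM, the deposited values gave log2 fold changes that differed from the normalized ones by a median of -0.108. The trimers with all chains at the level in every 2D library numbered 8 at 0.5 FPKM and 0 at 5 FPKM, against 4 at 1 FPKM, and those of 3D numbered 2 at each level. On quantile-normalized values, Lama4 was at 1.32 FPKM or more in every 2D library. Laminin-411 and laminin-421 thus also reached 1 FPKM in every 2D library on that scale. Depth limits Lama1, Lama3, Lama4 and Lamb3, some of whose values rest on under 10 fragments.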
